A study of Mus musculus with 16 samples.

Results

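Promoters of 8 genes of the urea cycle and of ammonia handling were followed in mouse liver by Promoter Capture Hi-C (P-CHi-C), in which crosslinked chromatin is cut with HindIII, neighbouring ends are ligated, and ligation products that hold a promoter fragment are captured and sequenced. The genes were Cps1, Ass1, Asl, Arg1, Nags, Glul, Gls2 and Slc25a15. They were picked as genes of this pathway, with earlier results of these data known. The HindIII fragment that holds each gene start was taken, and every listed pair with an end on it was counted as a contact. Each of the 8 start fragments was a bait, that is, a captured promoter fragment. Together they had 264 of the 247177 distinct interactions listed, and they were 8 of the 18165 baits seen in the lists. Captured fragments without a listed contact are not among these baits.

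Livers came from male wild type mice labelled as 8 week old, of the C57BL/6 strain, a common inbred laboratory strain, fed ad libitum and housed with 12 h light and 12 h dark a day. By the methods, mice of that age then spent 2 weeks in this light cycle, so the age at dissection may have been higher than the label. The groups were 4 timepoints in zeitgeber time (ZT), counted in hours from lights on, namely ZT0, ZT6, ZT12 when the lights went off, and ZT18. Numbers given from ZT0 to ZT18 are in this order. There was no other treatment or allele. Each group had 3 pools of 2 livers, with pool A on 2 lanes, and these pools were merged into 1 list of interactions before deposit. No value below therefore has a replicate error or a test, and a difference between timepoints cannot be told apart from a difference between lists. The lists held 146262, 154775, 151529 and 151347 pairs from ZT0 to ZT18, named by the sample labels, while a summary table of the study orders the last 3 totals differently. They hold no expression values, so the tissue could not be checked against marker genes, and whole liver joins hepatocytes of every zone with other cells.

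The urea cycle turns the ammonia set free by amino acid breakdown into urea, and it runs in hepatocytes, partly in mitochondria and partly in the cytosol. Its enzymes are most abundant in hepatocytes near the portal vein. Ammonia that passes them is caught as glutamine by glutamine synthetase, the product of Glul, in the narrow ring of hepatocytes around the central vein.

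The sequences just upstream of 4 of the gene starts show how promoters with many and with few contacts compared in base composition. Those of Glul and Slc25a15, which had the most contacts, and of Ass1 and Arg1, which had the fewest, are given below, each as the 250 bases before the gene start read 5′ to 3′ on the strand of the gene in build mm9. Their positions were chr1:155746824-155747073 for Glul (plus strand), chr8:23509094-23509343 for Slc25a15 (minus), chr2:31325477-31325726 for Ass1 (plus) and chr10:24647277-24647526 for Arg1 (minus). No annotated exon overlapped any of these windows. Capitals mark AGGTCA, a hexamer bound by nuclear receptors, where it was found.
Glul promoter: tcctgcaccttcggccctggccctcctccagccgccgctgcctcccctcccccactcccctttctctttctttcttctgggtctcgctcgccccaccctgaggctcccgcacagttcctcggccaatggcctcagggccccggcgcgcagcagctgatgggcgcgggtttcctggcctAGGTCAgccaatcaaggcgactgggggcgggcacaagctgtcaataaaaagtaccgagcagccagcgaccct
Slc25a15 promoter: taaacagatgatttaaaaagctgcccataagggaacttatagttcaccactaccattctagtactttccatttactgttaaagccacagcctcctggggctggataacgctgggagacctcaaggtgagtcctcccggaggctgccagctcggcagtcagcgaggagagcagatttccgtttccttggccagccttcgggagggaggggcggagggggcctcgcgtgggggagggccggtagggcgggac
Ass1 promoter: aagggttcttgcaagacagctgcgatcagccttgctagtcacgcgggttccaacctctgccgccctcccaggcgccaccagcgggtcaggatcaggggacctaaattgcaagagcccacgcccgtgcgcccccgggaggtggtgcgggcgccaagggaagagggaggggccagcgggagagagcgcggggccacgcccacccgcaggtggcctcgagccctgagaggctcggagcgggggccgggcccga
Arg1 promoter: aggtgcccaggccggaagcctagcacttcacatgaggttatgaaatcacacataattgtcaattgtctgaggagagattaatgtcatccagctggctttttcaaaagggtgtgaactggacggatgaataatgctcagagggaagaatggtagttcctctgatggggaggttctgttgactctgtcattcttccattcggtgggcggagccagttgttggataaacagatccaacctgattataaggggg

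Of these 4 promoters, that of Arg1 had the lowest GC content, 46.8% with 4 CpGs. Ass1 had the highest, 71.2% with 22 CpGs, while Glul had 66.4% and 16 CpGs, and Slc25a15 57.6% and 11 CpGs. Among the members not printed, Cps1 was lower still, with 44.8% and 0 CpGs, and Gls2 had 66.8% and 23 CpGs. The median over 16859 promoters of coding genes was 56.0% and 11 CpGs. Glul and Ass1 were thus both above the median in GC content, while one had many contacts and the other almost none.

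Motifs were searched on both strands from 250 bases before to 50 bases after each gene start. AGGTCA was found at Glul, 72 bases before the start on the strand of the gene, and at Nags, 178 bases before the start on the opposite strand, against 14.4% of 21768 promoters. The E-box CACGTG, the core of sites bound by clock proteins, was found in the Ass1 window 27 bases past the start, against 7.73% of promoters. No motif searched contains another. Neither TATAAA (12.5% of promoters), the cAMP response element TGACGTCA (2.18%), the C/EBP site TTGCGCAA (0.188%) nor the D-box TTATGTAA (0.91%) was found in a member window in these exact letters.

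The number of contacts differed widely within the pathway. Slc25a15, the mitochondrial ornithine carrier, had 109 distinct contacts over the 4 lists, Glul had 59 and Cps1, whose enzyme makes carbamoyl phosphate from ammonia, had 36. Gls2 had 24, Asl 19 and Nags 14. Arg1, whose enzyme releases urea, had 2 contacts, and Ass1, whose enzyme joins citrulline to aspartate, had 1. Over all baits the median was 9, with quartiles of 4 and 21, and 0.424% of baits had as many contacts as Slc25a15, 3.78% as many as Glul and 11.6% as many as Cps1. These figures leave out captured fragments with no listed contact. No member was listed in contact with another. All member contacts were within a chromosome and at most 806.7 kb from the gene start, and no member lay that close to another.

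**Figure D1:**
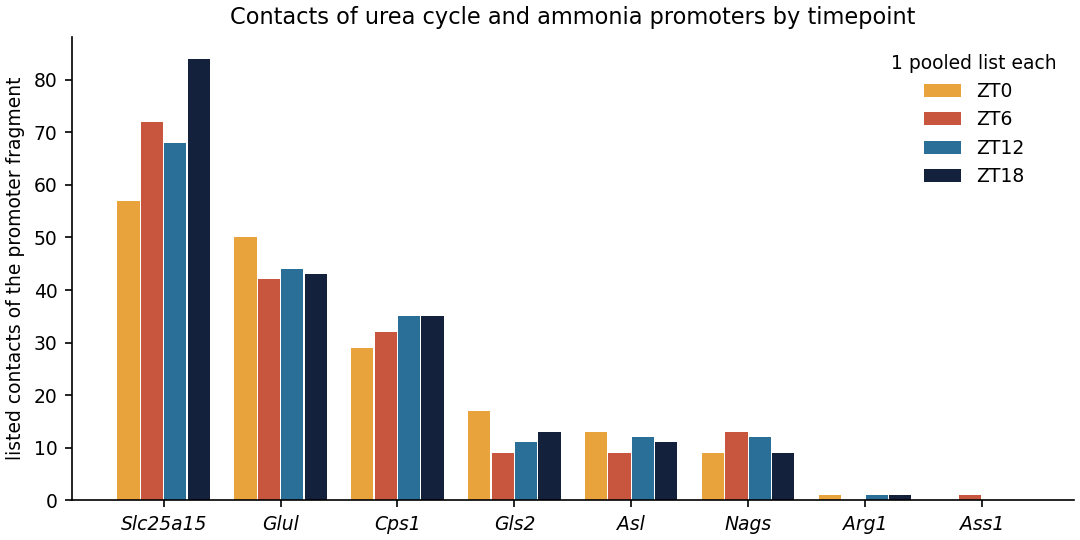
Number of listed contacts (vertical axis) of each promoter fragment at ZT0, ZT6, ZT12 and ZT18, 1 bar per pooled list, so that there are no error bars. Slc25a15 had from 57 to 84 contacts, Glul from 42 to 50 and Cps1 from 29 to 35, while Arg1 and Ass1 never had more than 1 in a list.

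Of the 264 member contacts, 114 were listed at all 4 timepoints, which is 43.2% (95% Wilson interval 37.3 to 49.2, counting error only), beside 32.5% of all interactions. A further 65 contacts, 24.6%, were in 1 list only, beside 35.2% of all interactions. The share differed among the promoters. It was 75% for Cps1 (27 of 36, interval 58.9 to 86.2) and 57.6% for Glul (34 of 59, interval 44.9 to 69.4), but 31.2% for Slc25a15 (34 of 109, interval 23.3 to 40.4) and 25% for Gls2 (6 of 24, interval 12.0 to 44.9), both near the share of all interactions. Without Slc25a15 the other 7 members together had 51.6%. Without Cps1 the share was 38.2% (interval 32.1 to 44.6), which includes the 32.5% of all interactions. Without Glul it was 39.0% (interval 32.6 to 45.8). Contacts of a promoter often lie on adjoining fragments and are not independent, so the true uncertainty is larger than these intervals.

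**Figure D2:**
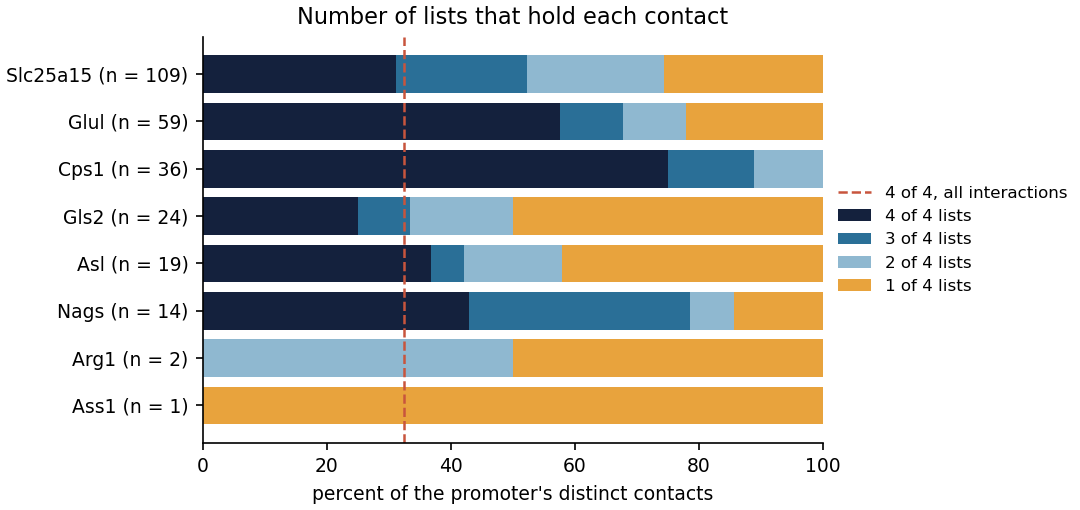
Percent of the distinct contacts of each promoter (horizontal axis, n in brackets) that were in 4, 3, 2 or 1 of the 4 lists, with the dashed line at the 32.5% of all interactions that were in all 4. Cps1 and Glul lay above the line, Slc25a15 and Gls2 near or under it, and no Cps1 contact was in a single list.

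CHiCAGO scores, which weigh the reads joining a fragment pair by what its distance and technical noise would give and start at 5 in these lists, ordered the promoters differently from the number of contacts. A score of 10 was reached at any timepoint by 20 of the 36 Cps1 contacts (55.6%, interval 39.6 to 70.5), 27 of the 59 Glul contacts (45.8%, interval 33.7 to 58.3) and 7 of the 14 Nags contacts (interval 26.8 to 73.2%). For Slc25a15 it was 24 of 109, or 22.0%, close to the 21.5% of all interactions. Over the members together it was 84 of 264, or 31.8%. Of those 84, 77 were listed at all 4 timepoints (91.7%), beside 89.7% of all interactions that reached this score. Although Slc25a15 had 109 contacts and Cps1 36, the numbers that reached 10 were thus close, 24 and 20, and Glul had more than either.

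Carbamoyl phosphate synthetase, the product of Cps1, takes free ammonia into the cycle in the mitochondrion. Its gene start is at chr1:67169600 on the plus strand, on a bait fragment of 2326 bp. The Cps1 promoter had 29, 32, 35 and 35 contacts from ZT0 to ZT18. ZT0 was lowest, and the highest number was 1.21 times the lowest. Of 1295 baits with a mean of at least 30 contacts, 61.5% had a ratio as large. At a score of at least 7 the numbers were 22, 21, 28 and 26, with ZT6 lowest, and at 10 or more they were 13, 14, 20 and 17, with ZT0 lowest.

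Contacts of Cps1 ran almost wholly to the upstream side, 33 of 36 (91.7%, interval 78.2 to 97.1). They formed 10 runs of adjoining fragments, and the long runs of 4 or more lay from 18.4 to 109.5 kb before the start. No annotated gene overlapped 22 of the contacted fragments, and 3 lay within Cps1 itself. The surroundings are poor in genes, with 5 starts of coding genes within 500 kb. The median was 16 around the starts of coding genes that lie on baits. The fragment with the highest score, chr1:67108304-67109286 at 60.8 kb upstream, scored 31.53, 26.49, 34.09 and 30.29 from ZT0 to ZT18. All of these are far above the minimum, and its neighbour at 62.7 kb upstream stayed between 19.39 and 24.91.

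Within the same stretch some fragments differed more between lists. The fragment at 65.3 kb upstream scored 10.15, 18.82, 19.57 and 22.30 from ZT0 to ZT18, with ZT0 lowest. The one at 109.5 kb upstream, inside Lancl1, scored 7.98, 8.03, 16.32 and 10.37 from ZT0 to ZT18, with ZT12 highest. Over the 27 contacts in all 4 lists the median score was 9.66, 10.1, 13.4 and 11.2 from ZT0 to ZT18. ZT12 held the highest score for 13 of the 27 (48.1%), beside 25.6% of all such interactions, and many of these 27 fragments are neighbours, so the counts are not independent.

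Just 2 of the 36 Cps1 contacts reached another bait. One was the promoter of Lancl1, a glutathione-binding protein, 82.2 kb upstream, with scores of 7.51, 13.50, 16 and 11.15 from ZT0 to ZT18. The other was the promoter of Acadl, an enzyme of fatty acid oxidation, 259.8 kb upstream, with 5.09 at ZT6 and 5.77 at ZT18. Lancl1 was also the bait whose contacts were most like those of Cps1 by the Jaccard index, the fragments contacted by both divided by those contacted by either (0.286): 14 fragments were shared, 38.9% of those of Cps1 and 51.9% of those of Lancl1.

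N-acetylglutamate synthase, the product of Nags, makes the molecule without which carbamoyl phosphate synthetase does not work. Its start, chr11:102006827 on the plus strand, shares a bait fragment with the start of Gm11586, so contacts of both genes cannot be told apart. The Nags promoter had 9, 13, 12 and 9 contacts from ZT0 to ZT18. The higher numbers were at ZT6 and ZT12, with a ratio of 1.44, and 63.0% of 1838 baits with a mean from 10 to below 15 contacts had a ratio as large.

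Nags was in contact almost only with promoters: 13 of its 14 contacts had a bait at the other end (92.9%, interval 68.5 to 98.7), beside 9 of 24 for Gls2 (37.5%, interval 21.2 to 57.3) and 7 of 19 for Asl (36.8%, interval 19.1 to 59.0). For Cps1 and Glul it was 5.56% and 5.08%, and for the 8 members together 47 of 264, or 17.8% (interval 13.7 to 22.9). Over all interactions, each counted once, the share was 15.4%. That is too low a background for contacts counted from baits, where a pair of baits counts at both ends. No excess of the members can therefore be read from it. The region around Nags is dense in genes, with 30 starts of coding genes within 500 kb, and no contacted fragment lay outside annotated genes. Gls2, with its lower share of promoter contacts, had 45 such starts around it, and Asl had 25.

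The strongest Nags contact, with the promoter of BC030867 at 100.6 kb downstream, scored 21.22, 25.69, 20.39 and 23.57 from ZT0 to ZT18. The promoter of Hdac5, a histone deacetylase, at 85.0 kb downstream, scored 14.31, 17.23, 16.51 and 8.21 in the same order of timepoints. That of Tmub2, at 136.4 kb downstream, had 12.50, 14.88, 16.36 and 9.22. Both were lowest at ZT18, where BC030867 was not. Tmem101, a membrane protein gene 10.5 kb downstream, was highest at ZT12 with 19.49 and had 11.45, 12.29 and 14.88 at ZT0, ZT6 and ZT18. Ppy, the gene of pancreatic polypeptide, 44.7 kb upstream, stayed between 9.18 and 10.84.

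The carrier encoded by Slc25a15 moves ornithine into the mitochondrion in exchange for citrulline and so links the mitochondrial and cytosolic steps of the cycle. Its start is at chr8:23509093 on the minus strand, on a bait fragment of 8108 bp. The promoter had 57, 72, 68 and 84 contacts from ZT0 to ZT18. ZT0 was lowest and ZT18 highest, with a ratio of 1.47, and 17.6% of 1295 baits with a mean of at least 30 contacts had a ratio as large. Among the contacts that reached 10, the lists held 11, 16, 9 and 18 from ZT0 to ZT18, so the lowest list was then ZT12. At a minimum of 7 they held 28, 43, 31 and 38, with ZT0 lowest and ZT6 highest, so the order of the timepoints depended on the minimum. Median scores of its 34 contacts in all 4 lists were 8.50, 9.72, 8.09 and 9.86, beside 8.75, 8.95, 8.98 and 8.98 over all such interactions.

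Slc25a15 contacts lay on both sides, 43 upstream and 66 downstream, in 36 runs, and 70 of 109 were 150 kb or more from the start. The longest run had 17 adjoining fragments from 181.2 to 228.9 kb downstream, over the genes Vps36 and Ckap2, and was contacted at 15, 17, 12 and 17 of its fragments at ZT0, ZT6, ZT12 and ZT18. The promoter of Vps36, a gene of endosomal sorting, gave the highest score, with 21.92, 16.90, 13.25 and 19.82 from ZT0 to ZT18. The promoter of Ckap2 next to it had 17.28, 12.16, 16.56 and 15.11. On the other side, the promoter of Vdac3, a channel of the outer mitochondrial membrane, at 194.0 kb upstream, had 19.48, 12.15, 12.21 and 10.80. These 3 promoters scored highest at ZT0, but over the 34 contacts in all 4 lists the highest score fell at ZT0 for 8, at ZT6 for 11, at ZT12 for 5 and at ZT18 for 10.

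One far stretch varied more between lists. A run of 6 fragments at 330.5 to 347.4 kb downstream, around the starts of Alg11 and of Atp7b, a copper transporter of hepatocytes, was contacted at 2 fragments, none, 2 and 6 from ZT0 to ZT18. Its highest score was 9.77, none of its fragments was in all 4 lists, and it was singled out after its values were seen. Of the 28 Slc25a15 contacts in 1 list only, 5, 9, 4 and 10 fell in the lists from ZT0 to ZT18.

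By the Jaccard index, the bait most like Slc25a15 was that of Mrps31 (0.393), a gene of the mitochondrial ribosome on a fragment whose midpoint is 13.6 kb upstream. It had 47 contacts, of which 44 (93.6%) were also contacts of Slc25a15, where they made up 40.4%. The bait of AI316807 and Slc20a2, with 84 contacts, shared more fragments, 49, at a lower index of 0.34. The promoters of Mrps31 and Slc25a15 were in contact, with scores from 9.36 to 11.76.

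Argininosuccinate synthase and argininosuccinate lyase, from Ass1 and Asl, make argininosuccinate in the cytosol and split it into arginine and fumarate, and arginase, from Arg1, ends the cycle. Ass1 starts at chr2:31325727 on the plus strand, on a bait fragment of 7799 bp with no other gene start. It had 1 contact, at ZT6 only, with chr2:31512787-31514555, which is 187.9 kb downstream and lies in no annotated gene, and the score of 5.58 was just above the minimum. All 18165 baits had at least this many, since a fragment without contacts is not seen in the lists. The nearest baits on either side, 254.0 and 168.0 kb away, had 1 and 10 contacts, so few contacts were also found at one neighbour.

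Arg1 starts at chr10:24647276 on the minus strand, on a bait fragment of 3722 bp. One of its 2 contacts was the promoter of Akap7, which anchors protein kinase A, 370.5 kb upstream, with 7.59 at ZT12 and 5.48 at ZT18. The other, chr10:24944215-24947498 inside Akap7 at 298.6 kb upstream, had 6.36 at ZT0. No Arg1 contact was in all 4 lists, and as few as 2 contacts were found at 16.8% of baits. That share leaves out captured fragments with no listed contact, so it is too low for all captured promoters. The next bait on the downstream side, 32.6 kb away at a U6 gene, had 21, while the next on the upstream side, 120.9 kb away, had 1.

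Asl starts at chr5:130501002 on the minus strand and shares its bait fragment with the start of Crcp, a gene that runs the other way, so contacts cannot be assigned to one of them. The fragment had 13, 9, 12 and 11 contacts from ZT0 to ZT18. ZT6 was lowest, with a ratio of 1.44. On the Asl strand 16 of 19 contacts were upstream, over Crcp and beyond, and 7 of 19 were promoters.

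The highest score of all 264 member contacts belonged to Asl and the promoter of Kctd7, 123.5 kb upstream, with 39.35, 27.22, 27.53 and 34.77 from ZT0 to ZT18. It was in all 4 lists, higher at ZT0 and ZT18 than at ZT6 and ZT12. At 27.22 its lowest score was still above the highest of any other Asl contact, and Kctd7 encodes a protein with a potassium channel tetramerisation domain. The promoter of Tpst1, a sulfotransferase gene 44.7 kb upstream, had 16.83, 9.86, 14.19 and 17.04. That of Rabgef1, an exchange factor of endosomal Rab proteins, 146.4 kb upstream, had 15.05, 11.38, 15.42 and 11.94. All 3 were lowest at ZT6, which was also the list with the fewest Asl contacts. By the Jaccard index the bait shared by Sbds and Tyw1 was most like that of Asl (0.318), with 7 contacted fragments in common, 36.8% of those of Asl and 70.0% of those of the other. The bait of 0610007L01Rik had 8 in common at an index of 0.267.

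**Figure D3:**
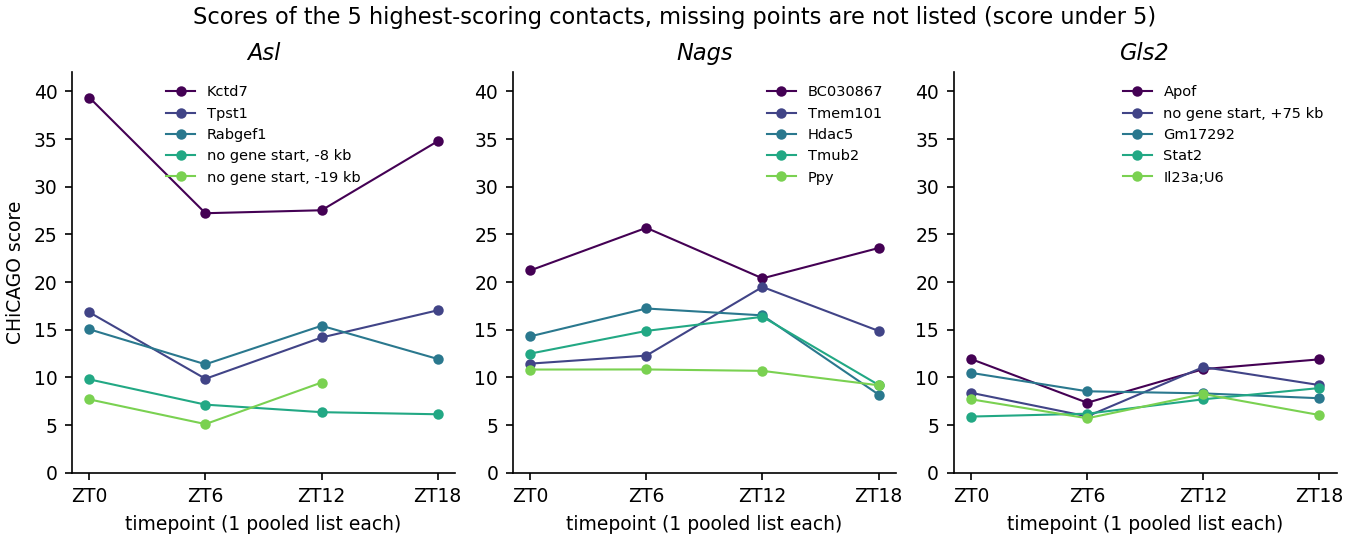
CHiCAGO score (vertical axis) of the 5 highest-scoring contacts of Asl, Nags and Gls2 at each timepoint (horizontal axis), each line 1 contact named by the gene start on the fragment. Kctd7 with Asl stayed between 27.22 and 39.35, Hdac5 and Tmub2 with Nags had their lowest scores at ZT18, and the Gls2 contacts stayed under 12.

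Liver glutaminase, the product of Gls2, sets ammonia free from glutamine near the portal vein, where the urea cycle takes it up. Its start, chr10:127631513 on the plus strand, lies on a bait fragment of 11392 bp. The promoter had 17, 9, 11 and 13 contacts from ZT0 to ZT18. ZT0 was 1.89 times ZT6, and Gls2 was the only one of the 6 members with a mean of at least 5 contacts whose ratio passed 1.5. That ratio was passed by 52.9% of 9029 such baits, by 58.1% of those with a mean from 10 to below 15, as for Gls2, and by 16.6% of those with at least 30, as for Cps1, Glul and Slc25a15. Of the 1838 baits with a mean from 10 to below 15, 22.8% had a ratio as large as that of Gls2, and the median ratio among them was 1.55.

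Of the 24 Gls2 contacts, 12 were in 1 list only, 5 of them at ZT0 and 5 at ZT18. The strongest was the promoter of Apof, a liver apolipoprotein gene 72.6 kb downstream, with 11.93, 7.35, 10.87 and 11.90 from ZT0 to ZT18. A contact 75.2 kb downstream within Apof had 8.39, 5.92, 11.09 and 9.20, and the start of Gm17292, 39.8 kb downstream, had 10.48, 8.55, 8.33 and 7.82. The promoter of Stat2, a signal transducer of interferons, scored 5.90 to 8.89, and that of Il23a, an interleukin subunit, 5.72 to 8.26. All of these lay on the downstream side, as did 18 of the 24.

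Other baits near Gls2 had contacts like its own. Mip, the lens aquaporin gene, shared 19 fragments (79.2% of those of Gls2), while Spryd4 and Timeless shared 16 each (66.7%). Gls2 has a second annotated transcript start on the adjoining fragment, the bait of Spryd4. With that fragment included, Gls2 had 49 distinct pairs in place of 24, the fragments shared by both baits being counted once for each.

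Glutamine synthetase, the product of Glul, joins ammonia to glutamate and marks the hepatocytes next to the central vein. Its start, chr1:155747074 on the plus strand, shares a bait fragment of 5900 bp with the start of 5830403L16Rik. The promoter had 50, 42, 44 and 43 contacts from ZT0 to ZT18. ZT0 was highest, with a ratio of 1.19 that 65.7% of the baits with at least 30 contacts reached. ZT0 was also highest at a score of at least 7, with 35, 30, 31 and 30, and at 10 or more, with 22, 16, 20 and 16.

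All but 1 of the 59 Glul contacts were downstream, the mirror image of Cps1 on the same chromosome. Apart from a single contact at 15.5 kb, the downstream contacts began 77.1 kb after the start and ended at 285.4 kb. Of all 59 contacts, 38 were at 150 kb or more, among them the upstream one at 350.8 kb. No annotated gene overlapped 56 of the 59 fragments. Within the downstream stretch 5 runs of 9 to 15 adjoining fragments held most contacts, and the farthest, 11 fragments at 265.6 to 285.4 kb, was contacted at 11, 11, 10 and 10 fragments from ZT0 to ZT18.

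The fragment chr1:155880570-155882521, 134.5 kb downstream, had the highest score, 31.80, 30.52, 26.45 and 27.90 from ZT0 to ZT18. Next came chr1:155963815-155967437 at 218.6 kb, with 30, 21.23, 22.61 and 29.22. A short fragment of 308 bp at 278.4 kb had 21.44, 17.56, 22.60 and 26.79. These 3 fragments scored at least 17.56 in every list. Scores were highest at ZT0 for the first and second of them and at ZT18 for the last. Over the 34 contacts in all 4 lists, medians were 11.2, 9.47, 11.2 and 9.70 from ZT0 to ZT18.

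That short fragment is printed as 1 part of the run of 11 contacted fragments at 265.6 to 285.4 kb. The fragments next to it were also in all 4 lists, with highest scores of 19.63 and 14.02. The contact is therefore not narrowed to these 308 bases. The printed fragment was the shortest among the Glul contacts in all 4 lists that reached a score of 10 and were no baits. The stretch is chr1:156025301-156025600, the first 300 bases of the fragment on the plus strand of mm9, which overlapped no annotated gene, and capitals mark the bases of the HindIII site at the fragment end.
Glul contact: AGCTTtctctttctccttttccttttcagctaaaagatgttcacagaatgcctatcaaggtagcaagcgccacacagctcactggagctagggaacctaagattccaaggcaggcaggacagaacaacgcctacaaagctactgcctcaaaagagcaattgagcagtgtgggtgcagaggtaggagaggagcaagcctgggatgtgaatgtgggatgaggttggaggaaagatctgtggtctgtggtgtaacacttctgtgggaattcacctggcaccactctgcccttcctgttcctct

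**Figure D4:**
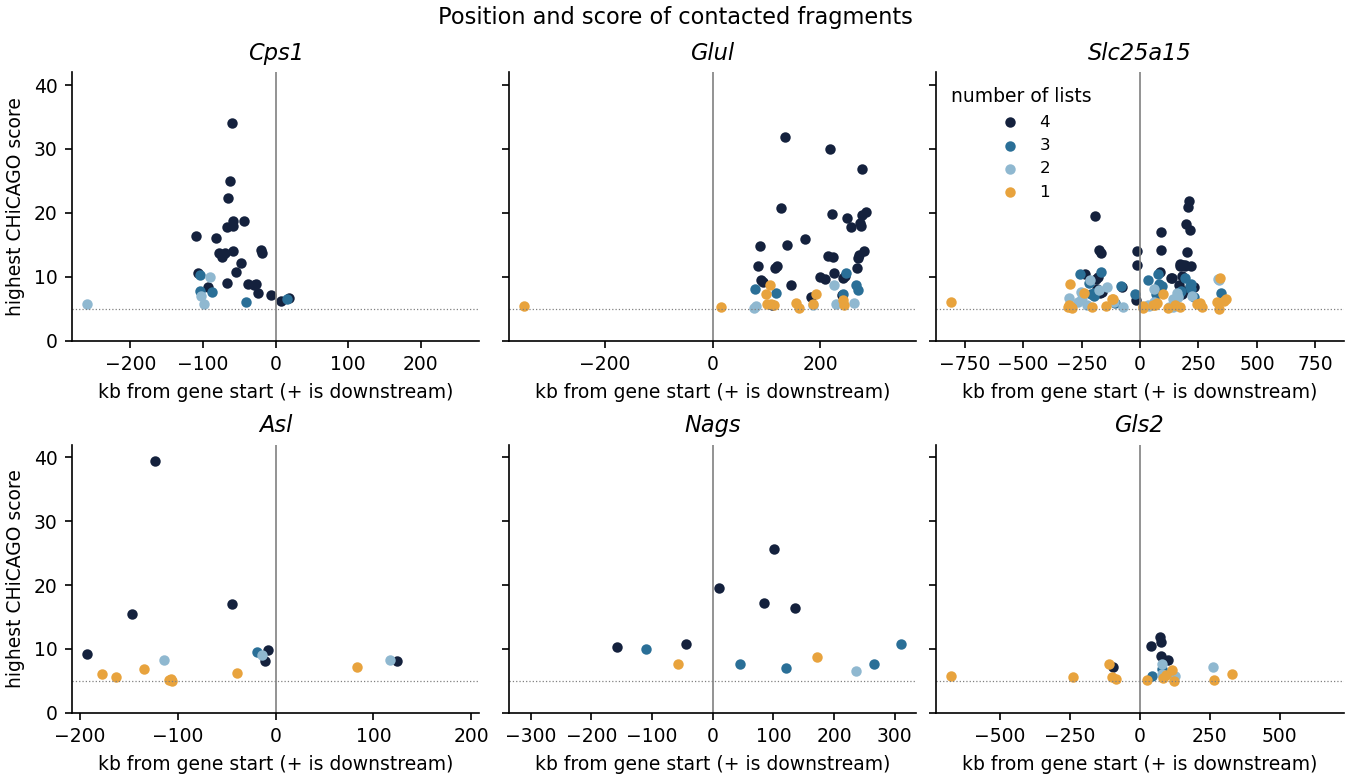
Contacted fragments of 6 promoters by distance from the gene start (horizontal axis, kb, with downstream positive) and highest CHiCAGO score over the 4 lists (vertical axis), coloured by the number of lists, with the dotted line at the minimum score of 5. Cps1 contacts lay upstream in 33 of 36 cases, Glul contacts downstream in 58 of 59, and Slc25a15 contacts on both sides.

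Other promoters next to Glul were listed with many of the same fragments. Gm11074 had 56 contacts, 51 of them (91.1%) shared with Glul, where they were 86.4%. Teddm1, whose bait ends 6.3 kb upstream of the Glul start, also had 56, of which 44 were shared. The contact between the Glul and Gm11074 promoters themselves was in 1 list, ZT12, at 5.18. In contrast, the bait that begins 2.0 kb downstream of the Glul start, on which a second Glul transcript starts, had 8 contacts.

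Distances differed among the members. The median over the 264 contacts was 139 kb, beside 162 kb for all interactions within a chromosome, and no member contact was between chromosomes. Those medians run between fragment midpoints, while the medians by promoter run from the gene start. By promoter the median was 61.75 kb for Cps1, 93.4 kb for Gls2, 108.9 kb for Asl, 115.95 kb for Nags, 178.6 kb for Slc25a15 and 208.6 kb for Glul.

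No timepoint had more contacts in all promoters. Together the members had 176, 178, 183 and 196 contacts from ZT0 to ZT18, which was 0.120, 0.115, 0.121 and 0.130% of the lists. Without Slc25a15 the numbers were 119, 106, 115 and 112, with ZT0 highest in place of ZT18. Of the 6 members with a mean of at least 5 contacts, Asl, Glul and Gls2 had most at ZT0 alone, Nags at ZT6 and Slc25a15 at ZT18, and Cps1 was equal at ZT12 and ZT18. Over 9029 baits of this kind the shares with most contacts at 1 timepoint alone were 15.7% for ZT0, 24.9% for ZT6, 20.8% for ZT12 and 20.2% for ZT18.

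A list of 30 further genes of nitrogen handling, also chosen with earlier results of these data known, was set beside the members. Of these, 24 had a bait at their start, while Otc, Arg2, Slc14a2, Asns and Car5a were among those with none in the lists, so ornithine transcarbamylase, the enzyme between Cps1 and Ass1, was not analysed here. The 24 had a median of 14 contacts, beside 21.5 for the members and 9 for all baits. They had 453 distinct interactions, of which 36.0% (interval 31.7 to 40.5) were in all 4 lists and 20.1% joined baits.

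As among the members, the numbers varied from gene to gene. Odc1, the ornithine decarboxylase that opens polyamine synthesis, had most, 46 distinct contacts with 35, 36, 30 and 39 from ZT0 to ZT18. Named after their values were seen, Slc38a2, a glutamine transporter, had 44, Got2, the mitochondrial aspartate aminotransferase, 43, Slc25a13, the aspartate-glutamate carrier citrin, 40, and Glud1, glutamate dehydrogenase, 38. At the other end Slc1a2, a glutamate transporter, and Slc7a1, an arginine transporter, had 1 contact each, and Cad had 2. Rhcg, an ammonia channel, had the same 6 contacts in all 4 lists, whereas Oat, ornithine aminotransferase, had 5, 4, 6 and 12, with 1 of 18 contacts in all of them. A highest number at least 1.5 times the lowest was common, at 52.9% of baits with a mean of at least 5 contacts.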

How the data were processed

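P-CHi-C libraries of 16 samples were mapped to mm9 and filtered with HiCUP by the authors, who ran CHiCAGO on the merged pools of each timepoint. What the authors deposited is 1 list a timepoint of fragment pairs whose score is 5 or more. A pair missing from a list may lie just under this minimum. Tool versions are not given in the sources used here, and read depth was not analysed here.

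Lists were read with pandas 2.3.3 in python 3.11.15 and followed the sample labels. A summary table with the study puts the totals of 3 lists under other timepoints, and that order was run as an alternative. Pairs were treated as unordered, and a bait is a fragment listed first in any list. Gene starts came from GENCODE vM1, and sequences from the mm9 genome, in which 129886 of 129887 listed fragments were exact HindIII fragments. Distances run from the gene start to the midpoint of a fragment for single contacts and medians by promoter, and between midpoints for medians over sets.

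Members and gene lists were chosen with earlier results of these data known. Genes named are the members, those at up to 5 top contacts of each, the bait most like each by the Jaccard index of contacted fragments (at least 3 shared), and the extremes of the pathway list. Others were named after their values were seen, and some items of these lists are not reported here. Counting was tested on simulated lists, with 200 of 200 baits recovered. Intervals of shares are 95% Wilson intervals (scipy 1.17.1), and that of the median distance comes from binomial order statistics.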

Additional observations from a re-analysis of the deposited data

How the results depend on the processing

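No paired analysis was possible because each timepoint came as 1 list of merged pools, and for the same reason no replicate could be left out. A stricter score minimum lowered the numbers: with a score of at least 7 the members had 108, 110, 114 and 110 contacts from ZT0 to ZT18, and with at least 10 they had 57, 53, 60 and 57, so that ZT12 was then highest in place of ZT18. The share in all 4 lists stayed within its interval for the members together, but fell to 22.7% for Slc25a15 at a minimum of 7 and to 44.4% for Glul at a minimum of 10. Where another contacted fragment of the same promoter within 10 kb counted as the same contact, 84.5% were found at all 4 timepoints, beside 68.5% over the contacts of all baits. Promoters with many adjoining contacts meet this rule more easily, and the members had a median of 21.5 contacts beside 9 over all baits. In alternatives chosen after seeing the data, the members other than Slc25a15 had 106, 115 and 112 contacts at ZT6, ZT12 and ZT18, 51.6% of contacts in all 4 lists and a median distance of 109 kb, and the members other than Cps1 had a median distance of 167 kb. The share in all 4 lists was 38.2% without Cps1 and 39.0% without Glul. With the lists read in the order of the study's summary table the totals were 176, 183, 196 and 178 from ZT0 to ZT18, and every ZT6, ZT12 or ZT18 value above would carry another timepoint. The lists give presence above a minimum without reads, so a contact in some lists only may differ in score by little, and its loss could not be set against a replicate.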

Other observations

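Promoters of amino acid breakdown, which feeds nitrogen into the urea cycle, were set beside the members as a comparison list of 22 genes. This list too was chosen with earlier results of these data known. A bait was at the start of 20, all but Cbs and Aass, with a median of 11.5 contacts. Of their 369 distinct interactions, 35.5% (95% Wilson interval 30.8 to 40.5) were in all 4 lists, beside 32.5% of all interactions. Another 24.4% (interval 20.3 to 29.0) was the share that joined 2 baits. Over all interactions, each counted once, that share was 15.4%. It is too low a background for contacts counted from baits, where a pair of 2 baits counts at both ends, so no excess can be read from it. The genes below were named after their values were seen. Cth, whose enzyme makes cysteine, had most with 71 distinct contacts (46, 49, 50 and 44 from ZT0 to ZT18), followed by Fah of tyrosine breakdown with 47, Bcat2, a branched-chain aminotransferase, with 43 and Hal, histidine ammonia lyase, with 41. Tdo2, the tryptophan dioxygenase, had 7, 24, 18 and 8 contacts from ZT0 to ZT18, on a fragment shared with the start of Accn5. Sds, serine dehydratase, had 8, 18, 15 and 9, on a fragment shared with Sdsl and Gm15690. Among baits with a mean from 10 to below 15 contacts, as for Tdo2 and Sds, 58.1% had a highest number at least 1.5 times the lowest. How often ratios as large as those of Tdo2 and Sds occur was not counted. Ftcd, of histidine breakdown, had 2 distinct contacts, neither of them in all 4 lists.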
